A study of Arabidopsis thaliana with 27 samples.

Results

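The direct comparison of *GC::AtTOR* with *35S::AtTOR* leaves under drought is described here, in 3 samples of each construct out of 27 samples in the series. Genes were taken where the mean normalized count was at least 10 in either construct, which kept 17320 of the 34218 genes in the table. Of these, 16639 passed in both constructs, 296 passed through *GC::AtTOR* alone and 385 through *35S::AtTOR* alone. All plants were *Arabidopsis thaliana* in the *Col-0* background, RNA came from leaves, and the remaining samples were WT (untransformed *Col-0*) drought samples and well-watered and re-watered samples of the 3 genotypes, 3 a group. Both transgenic genotypes carried the full-length *AtTOR* coding sequence. It was driven in *GC::AtTOR* (*GC::TOR* in the labels) by a guard cell promoter from tobacco, found upstream of a gene related to the RAP2.4 ethylene response factors, and in *35S::AtTOR* (*35S::TOR* in the labels) by the 35S promoter of cauliflower mosaic virus, which is active in most cells. Transformed lines had been selected on the herbicide phosphinothricin, which WT plants were not. Water was withheld from 27 to 38 days after germination (DAG), 11 days in all, and re-watered plants had 4 days of water after that. Neither the labels nor the study's methods give which transgenic line gave a sample, whether a sample was 1 plant or a pool, or the day length for the RNA plants.

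The Target of Rapamycin (TOR) kinase joins nutrient and energy supply to growth in eukaryotes. In plants it promotes ribosome production and translation, represses autophagy, and acts in opposition to the SnRK1 kinase, which is active when energy is short. Abscisic acid (ABA) builds up in drying leaves and binds PYR/PYL/RCAR receptors. The bound receptors inhibit clade A PP2C phosphatases, which frees SnRK2 kinases to act on transcription factors and on guard cell channels, so that stomata close.

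The 9 drought samples held between 10385851 and 14888716 reads assigned to genes, so depth was similar in the 3 genotypes. Samples of 1 genotype differed more under drought than in well-watered leaves. The root mean square SD of the log2 values was 0.437 in *GC::AtTOR*, 0.297 in *35S::AtTOR* and 0.399 in WT under drought, against 0.249 to 0.319 in the well-watered groups. On the first principal component of the drought samples, which held 62.2% of the variance, *GC::AtTOR* replicates 1, 2 and 3 scored -9.63, 52.7 and 72.6. The *35S::AtTOR* samples scored -46.6, -62.7 and -24.2, and the WT samples -19.3, -11.1 and 48. *GC::AtTOR* replicate 1 therefore lay among the WT samples and nearer to *35S::AtTOR* than its 2 fellow samples did, and *35S::AtTOR* replicate 3 was the one of its construct nearest to *GC::AtTOR*. Counts of called genes are accordingly given with and without these samples. The leaf label was borne out by its markers: summed over 20 light-harvesting genes, normalized counts ran from 237200 to 456800 in *GC::AtTOR* and from 433000 to 559000 in *35S::AtTOR*. Of 6 flowering genes, FT, LFY and AP1 were at or near 0 in both constructs and FLC was below the filter, while SOC1 and FUL, the others, were measured in every sample.

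TOR itself was measured first. Its normalized counts under drought were 1315, 1228 and 1304 in *GC::AtTOR*, 13546, 11435 and 13951 for *35S::AtTOR*, with 1362, 1174 and 1145 in WT. The *35S::AtTOR* samples were high and far from the other 6, while the *GC::AtTOR* and WT samples overlapped. The *GC::AtTOR* mean was 1283 ± 47.3 (SD, n = 3) and the *35S::AtTOR* mean 12980 ± 1350 (SD, n = 3), a 10.1-fold difference with a log2 fold change of -3.33 (SE 0.11, limma adjusted p = 4.39e-06). Against WT, TOR differed by 0.07 on the log2 scale in *GC::AtTOR* (limma adjusted p = 0.969), so TOR counts in whole leaves do not check the *GC::AtTOR* labels. Reads of the transgene and of the endogenous gene were not told apart. In whole leaves, fewer cells that express a gene and less RNA per cell cannot be told apart either.

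The second gene that set *35S::AtTOR* apart was AT3G58480, annotated as a calmodulin-binding family protein. Its normalized counts were 293, 338 and 189.8 in *35S::AtTOR*, 8.21, 6.54 and 2.92 in *GC::AtTOR* against 1.87, 2.67 and 6.89 in WT. This difference of -5.36 on the log2 scale (SE 0.46, limma adjusted p = 0.010) was seen without overlap in well-watered leaves (203, 124 and 161 in *35S::AtTOR*, at most 7.67 in *GC::AtTOR*) and in re-watered leaves (649, 1469 and 897 against at most 2.69). The 2 neighbouring genes on each side in locus number, AT3G58460, AT3G58470, AT3G58490 and AT3G58500, had log2 fold changes of -0.06, 0.20, 0.28 and 0.17 under drought, and none passed the test.

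Over all genes, 61 passed the test (limma, a Benjamini-Hochberg adjusted p below 0.05 together with an absolute log2 fold change over 1), which is 0.352% of those tested. 21 were higher in *GC::AtTOR* (0.121%) and 40 were lower (0.231%). In all 61 the samples of the constructs did not overlap, as was the case for 27.9% of all genes tested, 13.4% with *GC::AtTOR* higher and 14.5% with *GC::AtTOR* lower. Beyond TOR and AT3G58480 the adjusted p-values of called genes lay close together, from 0.0346 to 0.0495, while 25.3% of all genes had an unadjusted p under 0.05. The median log2 fold change of all genes was 0.0067.

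How many genes were called depended on which samples and which estimate of the spread entered the test. Without *GC::AtTOR* replicate 1, 425 genes were higher and 913 lower. Without replicate 2 or 3 of *GC::AtTOR*, or replicate 1 or 2 of *35S::AtTOR*, 0 genes were higher and 1 or 2 were lower, and without *35S::AtTOR* replicate 3 the counts were 20 and 22. Leaving out a WT sample, which enters through the spread alone, gave 1 higher and 3 lower without replicate 1, 0 and 2 without replicate 2, and 42 and 165 without replicate 3. With a spread estimated over all 27 samples 261 genes were higher (1.51%) and 810 lower (4.68%), 6.18% of those tested in all, whereas the 6 samples alone gave 1 and 2. On recovered reads edgeR called 23 and 45, DESeq2 289 and 534. TOR was called under each of 25 alternatives and AT3G58480 under 21. The other leading genes named below kept their direction under all 25, but not their call. They were chosen among genes whose samples did not overlap, so leaving out a sample could not reverse them.

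**Figure D1:**
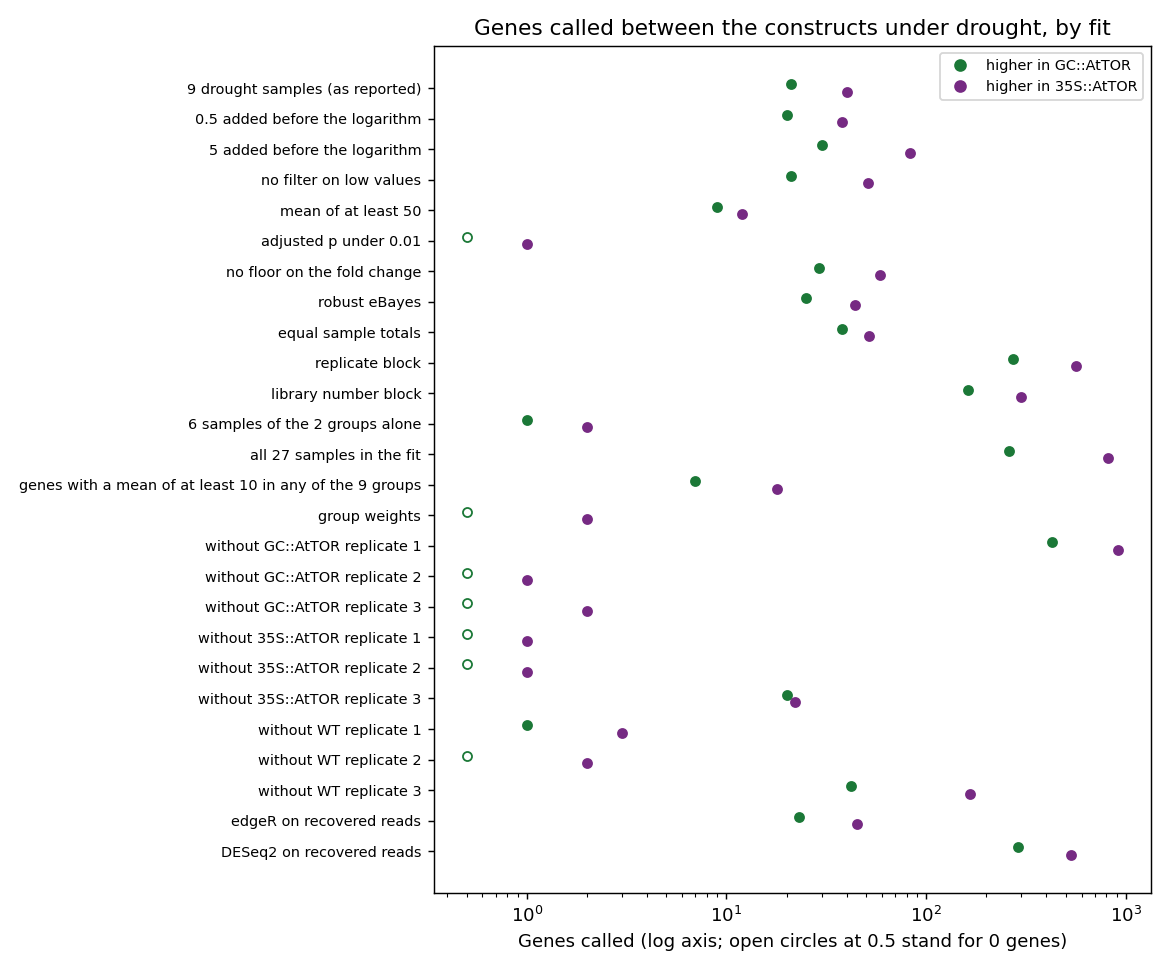
Genes called higher in GC::AtTOR (green) and higher in 35S::AtTOR (purple) under drought, on a log axis, for the 9 drought samples as reported (21 and 40) and for each alternative. Open circles stand for 0 genes, and the counts run from 0 and 1 to 425 and 913, the latter without GC::AtTOR replicate 1.

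Among called genes averaging 100 or more in the higher construct, 16 were higher in *GC::AtTOR*. The largest difference was that of QQS, an *Arabidopsis* orphan gene known to affect how carbon is shared between starch and protein. QQS stood at 333, 338 and 362 normalized counts in *GC::AtTOR* against 71.7, 58.6 and 54.0 in *35S::AtTOR*, with WT between them at 90.8, 142 and 212. The samples of the 2 constructs were well apart, with a log2 fold change of 2.48 (SE 0.26, limma adjusted p = 0.0346). QQS was also higher in *GC::AtTOR* without overlap in well-watered leaves (309, 325 and 406 against 51.2, 64.3 and 68.3) and in re-watered leaves (850.4, 1006 and 821 against 273, 327 and 151).

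A pair of flavonol genes followed in size. FLS1, which encodes flavonol synthase, was at 735, 882 and 910.4 in *GC::AtTOR* against 166, 113 and 283 in *35S::AtTOR* (log2 fold change 2.26, SE 0.28, limma adjusted p = 0.0394). MYB111, a transcription factor that activates flavonol synthesis genes, was at 197, 378 and 300.2 against 63.1, 43.9 and 78.5 (2.21, SE 0.37, limma adjusted p = 0.0488). WT samples were near *GC::AtTOR* for both, with FLS1 at 526, 513 and 662 and MYB111 at 126, 204 and 320. In these genes the *35S::AtTOR* samples were the low ones, below every WT sample. Against WT their log2 fold changes of -1.68 for FLS1 and -1.73 for MYB111 did not pass the test (limma adjusted p = 0.1298 and 0.1855).

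GORK, the outward potassium channel through which guard cells lose potassium as stomata close, was at 820.2, 1166 and 1285 in *GC::AtTOR* against 474, 501 and 506 in *35S::AtTOR* (log2 fold change 1.12, SE 0.19, limma adjusted p = 0.0488). WT was at 666, 774 and 998. The *35S::AtTOR* samples were again the low ones.

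CYCD1;1, a D-type cyclin of the cell cycle, was at 181, 281 and 259 in *GC::AtTOR* against 99.4, 95.7 and 85.1 in *35S::AtTOR*, with a log2 fold change of 1.33 (SE 0.20, limma adjusted p = 0.0419). ALDH2B7, a mitochondrial aldehyde dehydrogenase, was at 142, 182 and 191 against 69.8, 64.4 and 77.7. AAE18, an acyl-activating enzyme, was at 266, 476 and 331 against 94.6, 93.7 and 136. All 3 had *GC::AtTOR* samples above all *35S::AtTOR* samples.

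The other higher genes were AT5G45630 (a DUF584 senescence regulator family protein), AT2G43590 (chitinase family), AT5G37540 (aspartyl protease family), AT4G20320 (CTP synthase family), AT2G30540 (thioredoxin superfamily), SGB1 (a sugar transporter family protein), AT3G55840 (Hs1pro-1 family), AT3G19470 (F-box family) and AT3G06355, a long noncoding RNA. Their log2 fold changes ran from 1.04 for AT3G19470 to 1.84 for AT5G45630. AT3G06355 was at 392, 558 and 434 in *GC::AtTOR*, 179, 134 and 167 for *35S::AtTOR*, with 56.2, 71.2 and 89.6 in WT. It was the exception among them in that both constructs were above WT in every sample, and it differed from WT in *GC::AtTOR* by 2.67 on the log2 scale (limma adjusted p = 0.0068).

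**Figure D2:**
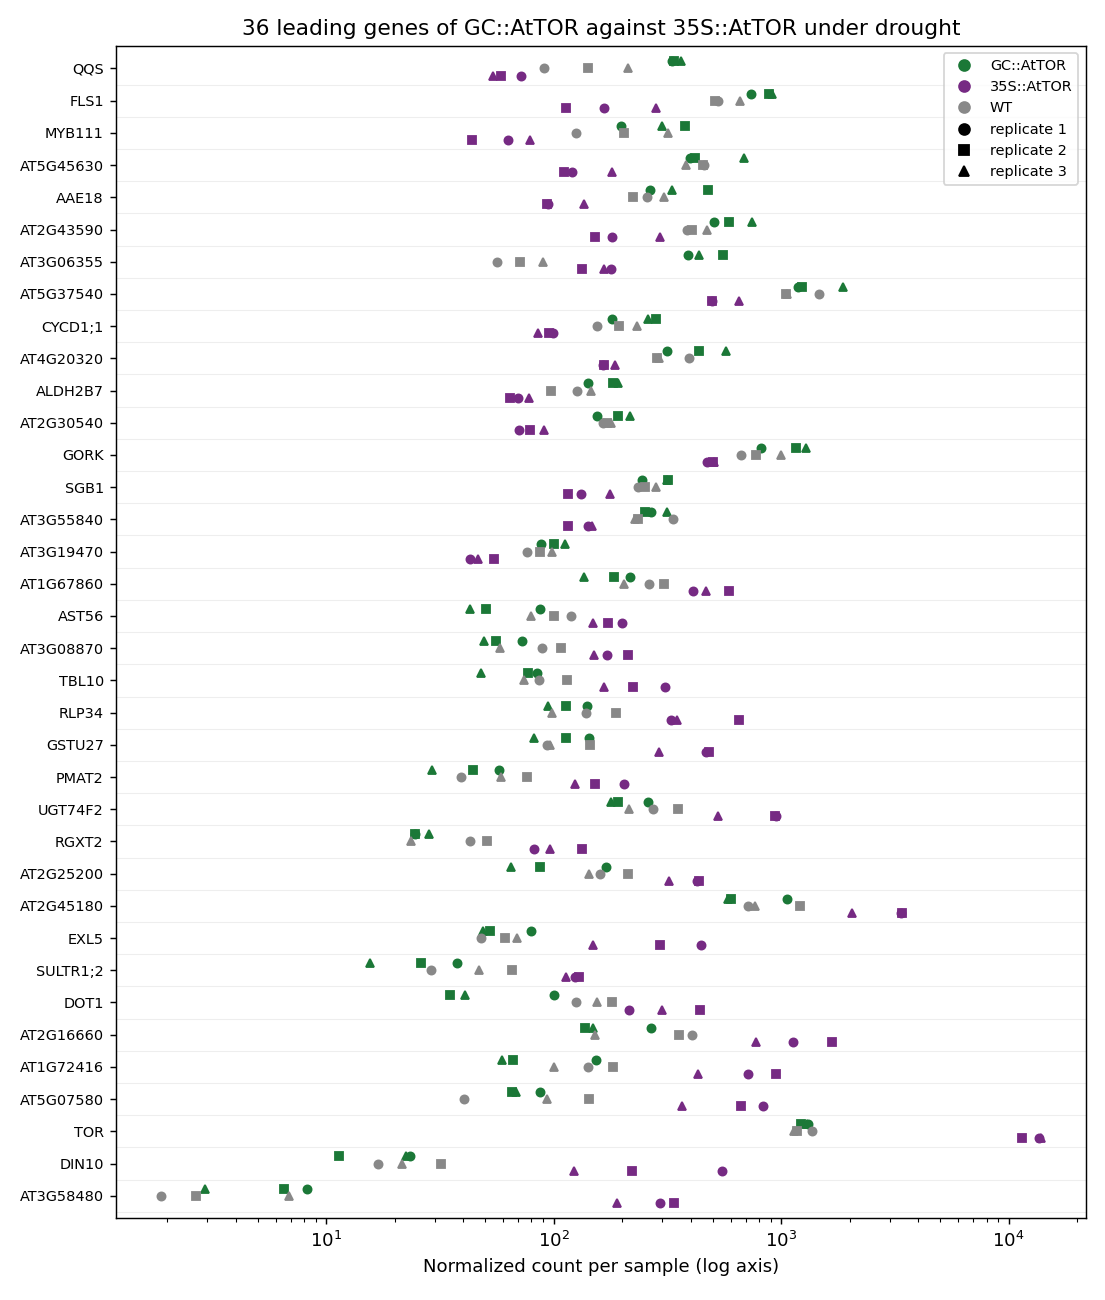
Normalized count per drought sample (log axis) of the 36 leading genes, 16 higher and 20 lower in GC::AtTOR, with GC::AtTOR in green, 35S::AtTOR in purple, WT in grey and a symbol for each replicate. The constructs do not overlap in any of them, and WT lies nearer to GC::AtTOR for most, while QQS, AT3G06355 and DOT1 have WT nearer to 35S::AtTOR.

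On the lower side 30 called genes averaged 100 or more in the higher construct, of which the 20 with the largest differences are described, TOR and AT3G58480 among them. DIN10, a raffinose synthase family gene known for its rise in dark and in sugar starvation, was at 23.5, 11.4 and 22.4 in *GC::AtTOR* against 548, 222 and 123 in *35S::AtTOR*, with WT at 16.9, 32.1 and 21.7. The log2 fold change was -3.68 (SE 0.52, limma adjusted p = 0.0399), and no *35S::AtTOR* sample came near the other 6.

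AT5G07580, an ethylene-responsive transcription factor, was at 86.8, 65.4 and 68.2 in *GC::AtTOR* against 832, 669 and 366 in *35S::AtTOR* (log2 fold change -2.99, SE 0.44, limma adjusted p = 0.0417). AT1G72416, a DnaJ-domain protein, was at 154, 66.2 and 59.5 against 719, 954 and 431 (-2.96, SE 0.41, limma adjusted p = 0.0394). In AT1G72416 the value of *GC::AtTOR* replicate 1 was over those of replicates 2 and 3. AT2G16660, of the major facilitator superfamily, was at 267, 138 and 149 against 1134, 1682 and 772, a difference of -2.68 (SE 0.43, limma adjusted p = 0.0472).

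Sulfate transport was represented by SULTR1;2, a high-affinity sulfate transporter, at 37.5, 26.2 and 15.6 in *GC::AtTOR* against 124, 129.8 and 114 in *35S::AtTOR* (log2 fold change -2.25, SE 0.35, limma adjusted p = 0.0472). AST56, another sulfate transporter family gene, was at 86.8, 50.7 and 42.9 against 199.8, 173 and 149 (-1.57, SE 0.26, limma adjusted p = 0.0488). Both were thus higher in every *35S::AtTOR* sample. No list of sulfur genes was tested.

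UGT74F2, a glucosyltransferase that acts on salicylic acid, was at 259, 192 and 178 in *GC::AtTOR* against 946, 937 and 530.2 in *35S::AtTOR*, with a log2 fold change of -1.90 (SE 0.27, limma adjusted p = 0.0399). GSTU27, a tau class glutathione S-transferase, and RLP34, a receptor-like protein, had log2 fold changes of -1.87 and -1.86. EXL5 (EXORDIUM family) was at 79.8, 52.3 and 48.7 against 443, 293 and 149.7. TBL10 (trichome birefringence-like family) had -1.73 and RGXT2 (a rhamnogalacturonan xylosyltransferase) -1.94 on the log2 scale.

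The remaining leading genes lower in *GC::AtTOR* were AT2G45180 (lipid-transfer and 2S albumin superfamily), AT2G25200 (DUF868 family), DOT1 (glycine-rich protein family), PMAT2 (HXXXD-type acyltransferase family), AT3G08870 (lectin receptor kinase family) and AT1G67860 (uncharacterized). Their log2 fold changes ran from -2.51 for DOT1 to -1.46 for AT1G67860. Of the 61 called genes, 9 passed the filter on low values through one construct alone and so had to differ, AT3G58480 and MAM3 among them.

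Measured against WT, the called genes mostly had *35S::AtTOR* as the genotype apart. The WT mean was nearer to the *GC::AtTOR* mean for 57 of the 61 called genes (93.4%), 19 of the 21 higher and 38 of the 40 lower, against 61.9% of all genes tested. The exceptions were QQS, AT3G06355, AT4G00780 (TRAF-like family) and DOT1. Each construct against WT under drought gave 2 called genes, 0.0115% of those tested. Those of *35S::AtTOR* were TOR and AT3G58480. Both contrasts share the WT samples.

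The drought response of WT was set beside the difference between the constructs, since the 2 share no sample. In WT, 1385 genes rose under drought (8% of those tested) and 1823 fell (10.5%) by the same thresholds. Of the genes that rose in WT, 28.6% were higher in *GC::AtTOR* than in *35S::AtTOR* without overlap and 4.26% were lower, against 13.4% and 14.5% of all genes. Of the genes that fell in WT, 48.9% were lower in *GC::AtTOR* without overlap and 1.04% were higher. The median log2 fold change between the constructs was 0.37 for genes that rose and -0.71 for genes that fell, beside 0.0067 for all genes. Leaving out each of the 6 samples in turn moved these medians between 0.32 and 0.46 and between -0.88 and -0.53. Genes that passed the filter through *GC::AtTOR* alone (296 of all tested) or *35S::AtTOR* alone (385) were kept in these shares and medians. A gene below the filter under drought in *GC::AtTOR* could enter only if it was higher in *35S::AtTOR*, and the reverse. Shares and medians without such genes are not given here.

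By sample, the genes that rose in WT had a median difference from the well-watered WT mean of 1.46, 1.61 and 1.70 on the log2 scale in *GC::AtTOR*, 1.24, 1.10 and 1.37 for *35S::AtTOR*, with 1.58, 1.54 and 1.58 in WT, whose own samples chose them. For the genes that fell the medians were -1.40, -1.79 and -2.13 in *GC::AtTOR*, -1.02, -0.90 and -1.22 for *35S::AtTOR*, with -1.54, -1.37 and -1.78 in WT. The *35S::AtTOR* drought samples thus had the smallest displacement in both sets, and *GC::AtTOR* replicate 1 the smallest of its construct. In well-watered leaves the order was the other way, since *35S::AtTOR* was displaced by 0.51, 0.61 and 0.52 for the genes that rose, and *GC::AtTOR* by 0.07, 0.18 and 0.23. Among the called genes, 12 of the 21 higher in *GC::AtTOR* rose in WT and 0 fell, and 27 of the 40 lower fell in WT and 1 rose.

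**Figure D3:**
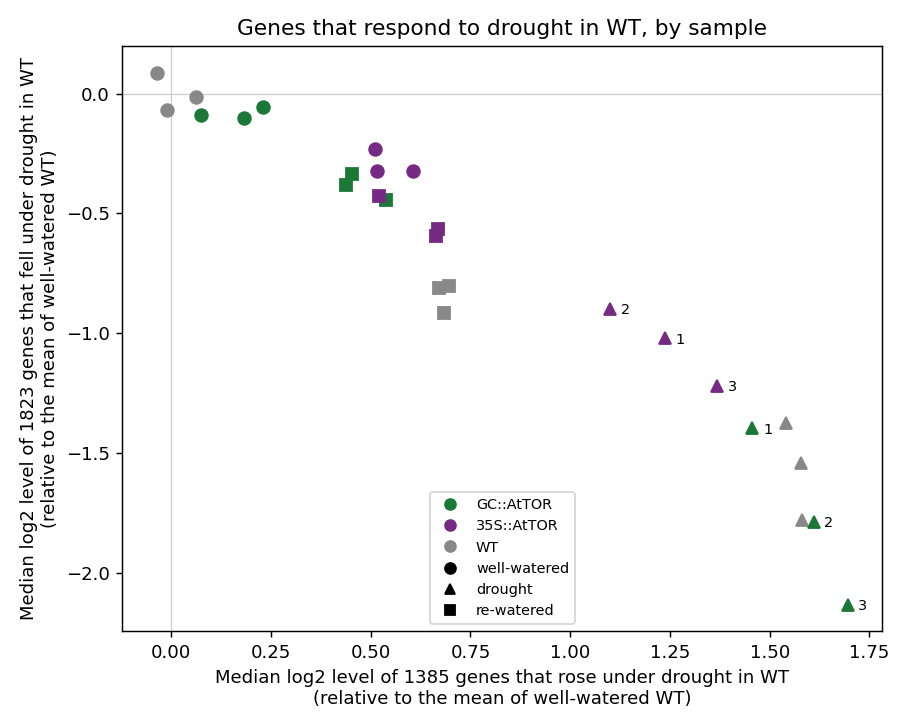
Median log2 difference from the well-watered WT mean of the 1385 genes that rose (horizontal axis) and the 1823 genes that fell (vertical axis) under drought in WT, 1 point a sample. The 35S::AtTOR drought samples (1.10 to 1.37 and -0.90 to -1.22) lie nearer to the well-watered samples than the GC::AtTOR drought samples do (1.46 to 1.70 and -1.40 to -2.13). Both sets include genes that passed the filter through 1 construct alone.

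Lists of genes of known function held 476 distinct tested loci, of which 7 were called (TOR, DIN10, FLS1, MYB111, GORK, PYL8 and MAM3). Lists are therefore described by their medians and by the number of members whose samples did not overlap, beside the background shares of 13.4% higher and 14.5% lower. Differences of single genes that follow did not pass the test unless stated.

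ABA signalling genes differed by their role. Of 7 tested receptors, 1 was called lower in *GC::AtTOR* and 5 were lower without overlap, with a median log2 fold change of -0.57. The filter was passed through *35S::AtTOR* alone by 2 of the 7, which therefore had to be lower in *GC::AtTOR*. Over the 5 that passed in both constructs the median was -0.33, with 3 lower without overlap. The called receptor was PYL8 (locus AT5G53160, RCAR3), at 150.2, 122 and 103 in *GC::AtTOR* against 394, 305 and 242 in *35S::AtTOR* (-1.31, SE 0.21, limma adjusted p = 0.0488), with WT at 126, 176 and 156. PYL4 and PYL5 missed the threshold with log2 fold changes of -1.78 and -3.21 (limma adjusted p = 0.0512 and 0.0587).

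The clade A PP2C phosphatases, which the receptors inhibit, had positive log2 fold changes in 8 of 8 tested members with a median of 1.18, but in 0 of the 8 were the samples free of overlap. HAI1, the member highest by log2 fold change, was at 2024, 3429.5 and 6017 in *GC::AtTOR* against 984, 738 and 2458 in *35S::AtTOR*, with WT at 2056, 2573 and 3703 (1.52, SE 0.50, limma adjusted p = 0.120). The range within *GC::AtTOR* was wide, with replicate 1 the lowest. Without *GC::AtTOR* replicate 3 the list median was 0.68, and without replicate 1 it was 1.66.

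SnRK2 kinases and the ABF and ABI5 transcription factors had medians of 0.05 and -0.03, whose sign changed when single samples were left out. Of the genes of ABA synthesis and release, none of 7 was called, and NCED3, the dioxygenase of the rate-limiting step, had a log2 fold change of 0.14 (SE 0.52). BGLU18, which releases ABA from its glucose ester, had -1.05. The ABA hydroxylases CYP707A1 and CYP707A2 had 0.96 and 0.91, without overlap, and CYP707A3 and CYP707A4 had -0.03 and -0.20, with overlap. Over the 5 tested genes of ABA breakdown the median was -0.03, whose sign changed without single samples.

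Genes that protect drying cells differed among themselves. LEA7, a late embryogenesis abundant protein gene, was at 2586, 9444 and 23305 in *GC::AtTOR* against 394, 531 and 2282 in *35S::AtTOR*, with WT at 2726, 3599 and 6744 (log2 fold change 3.40, SE 0.85, limma adjusted p = 0.0787). RAB18, a dehydrin used as an ABA marker, was at 38312, 76487 and 175998 against 12943, 15174 and 44870, and the samples overlapped. *GC::AtTOR* replicate 3 was the highest sample for both. In contrast, the cold and ABA responsive genes COR15B and KIN2 had negative log2 fold changes of -1.20 and -1.08. Over the 20 tested members of the list the median was 0.26 (0.10 without *GC::AtTOR* replicate 3 and 0.12 without *35S::AtTOR* replicate 1), with 2 higher and 3 lower without overlap, which is near the background.

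Proline accumulates as an osmolyte in dry leaves. P5CS1, which encodes the first enzyme of its synthesis, was at 24542, 40156 and 36834 in *GC::AtTOR* against 13864, 11328 and 20680 in *35S::AtTOR*, without overlap (log2 fold change 1.16, SE 0.30, limma adjusted p = 0.0825). 5 of 7 tested genes of proline metabolism and transport were higher without overlap, breakdown enzymes ERD5 and ALDH12A1 included, and the list median was 0.68. Lipid transfer proteins had a median of 0.81 (0.52 without *35S::AtTOR* replicate 1 and 1.22 without replicate 3) and 3 of 6 higher without overlap.

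Heat shock genes, whose proteins refold or hold damaged proteins, had the highest list median, 1.59, with 6 of 9 tested members higher without overlap and none called. For 3 of the 9 (HSP17.4, HSP18.2 and HSP21) the filter was passed through *GC::AtTOR* alone, so that they had to differ, and the median of the other 6 was 0.84, with 3 higher without overlap. HSP22.0 was at 138, 293 and 254 in *GC::AtTOR* against 10.5, 13.7 and 61.4 in *35S::AtTOR*, with WT at 107, 121 and 196 (log2 fold change 3.32, SE 0.59, limma adjusted p = 0.0513). HSP21, a chloroplast small heat shock protein, was at 10.6, 71.1 and 138 against 0.96, 1.95 and 3.27 (4.07, SE 0.93, limma adjusted p = 0.0695). *GC::AtTOR* replicate 1 was the lowest of its construct in both. With single samples left out the median ran from 1.33 to 1.81.

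In flavonoid synthesis the called FLS1 and MYB111 were joined by TT4 (chalcone synthase, the entry step), at 6510, 9075 and 9233 in *GC::AtTOR* against 1659, 3212 and 4264 in *35S::AtTOR*, and by TT5 (chalcone isomerase), with log2 fold changes of 1.53 and 1.12 (limma adjusted p = 0.0597 and 0.0587). MYB12, the close relative of MYB111, had 1.60. PAP2 (MYB90), an activator of anthocyanin synthesis, had 2.52 at low levels (limma adjusted p = 0.0977). The late anthocyanin genes DFR, LDOX and UF3GT had -0.08, -0.16 and -1.01 with overlapping samples. No test compared the steps of the pathway. 6 of 13 tested members were higher without overlap and the median was 0.89. It was 0.21 without PAP2 and MYB12, which passed the filter on low values through *GC::AtTOR* alone. Of the other 11 members, 4 were higher without overlap. With all 13 the median fell to 0.37 without *35S::AtTOR* replicate 1 and to 0.56 without *GC::AtTOR* replicate 2.

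Photosynthesis genes encoded in the nucleus mostly had negative log2 fold changes between the group means, without any being called. The 22 photosystem subunits had negative log2 fold changes without exception, with a median of -0.58 and 8 members lower without overlap. PSBQ-2, a subunit of the oxygen-evolving complex, was at 14065, 8314 and 3948 in *GC::AtTOR* against 19635, 21667 and 14490.5 in *35S::AtTOR* (-1.25, SE 0.40, limma adjusted p = 0.117). Light-harvesting genes had a median of -0.43 (-0.28 without *GC::AtTOR* replicate 3) with 5 of 19 lower without overlap, the most negative being LHCB2.3 at 906, 258 and 79.0 against 1764, 2554 and 1348. In the Rubisco and Calvin cycle list the median was -0.55 (-0.85 without *GC::AtTOR* replicate 1 and -0.25 without replicate 3), and 1 of 19 was lower without overlap. In each list *GC::AtTOR* replicate 1 was the sample of its construct nearest to *35S::AtTOR* by its list median, and it lay within the *35S::AtTOR* range. For photosystem genes its median difference from the WT drought mean was 0.33, against 0.40, 0.63 and 0.29 in *35S::AtTOR*. The lower list medians thus came from replicates 2 and 3. Without replicate 1 the photosystem median was -0.82, and without replicate 3 it was -0.36.

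Guard cell genes are of interest because one construct was driven in guard cells. GORK was called higher, and MPK12, a kinase of guard cell signalling, was at 190.1, 352 and 302 in *GC::AtTOR* against 189, 181 and 170.2 in *35S::AtTOR*, without overlap but with limma adjusted p = 0.127. Other channels lay the other way. KAT1, an inward potassium channel, was at 34.0, 16.3 and 27.3 against 50.7, 54.7 and 37.6, and ALMT12, a malate channel of stomatal closure, had a log2 fold change of -1.26 (SE 0.41). SLAC1, the anion channel that SnRK2 kinases open, had -0.17 (SE 0.27). Over the 13 members, 2 were higher and 4 lower without overlap, with a median of -0.49. Among them 1 passed the filter through *35S::AtTOR* alone and had to be lower, and 3 of the other 12 were lower without overlap. Summed normalized counts of the 13 ran from 7976 to 15070 in *GC::AtTOR* and from 8349 to 12760 in *35S::AtTOR*. Genes of stomatal development had 0 of 9 called, and the sign of their median changed without *GC::AtTOR* replicate 3.

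Jasmonate genes split the drought samples in a way that cut across genotypes. JAZ10, a repressor that jasmonate itself induces, was at 211, 4.09 and 4.87 in *GC::AtTOR*, at 61.2, 178 and 92.5 for *35S::AtTOR* and at 812, 293 and 2.95 in WT. *GC::AtTOR* replicates 2 and 3 and WT replicate 3 were thus low together, and *GC::AtTOR* replicate 1 was above all *35S::AtTOR* samples. Over 11 JAZ genes the median difference from the WT drought mean was 0.18, -2.36 and -2.53 in *GC::AtTOR*, 0.12, 0.66 and -0.10 for *35S::AtTOR*, with 1.72, 0.59 and -2.36 in WT. None of the 11 was called, and 2 were lower in *GC::AtTOR* without overlap, with a list median of -1.70 that was -2.66 without *GC::AtTOR* replicate 1 and -1.16 without replicate 3. Genes of jasmonate synthesis and induced defence had the same low 3 samples (-1.82 and -1.95 in *GC::AtTOR* replicates 2 and 3, and -2.08 in WT replicate 3). VSP2, a jasmonate-induced vegetative storage protein, was at 1905, 1282 and 407 in *GC::AtTOR*, 3129, 6941 and 3339 for *35S::AtTOR*, with 11547, 4146 and 497 in WT.

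WRKY transcription factors of stress and senescence had the lowest list median, -2.73, with 5 of 7 lower in *GC::AtTOR* without overlap and none called. WRKY53, a promoter of leaf senescence, was at 167, 28.6 and 35.1 in *GC::AtTOR*, 951, 1158 and 484 for *35S::AtTOR*, with 393, 322 and 39.4 in WT (-3.85, SE 0.92, limma adjusted p = 0.0746). WRKY70, which acts in salicylic acid defence, was at 3694, 569.7 and 172 against 7406, 8999 and 4674. The 3 samples low in jasmonate genes were low here too, and *35S::AtTOR* was highest for both genes. Without *GC::AtTOR* replicate 1 the list median was -3.58.

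In salicylic acid defence, 5 of 10 tested genes were lower without overlap and 1 was higher, with a median of -0.75. EDS1 and PAD4, partners in basal immunity, had log2 fold changes of -1.97 and -2.11 (limma adjusted p = 0.0596 and 0.0761). NIMIN1, which binds the regulator NPR1, was at 5.87, 0 and 0.97 in *GC::AtTOR* against 56.4, 120.1 and 39.3 in *35S::AtTOR* (limma adjusted p = 0.0571). It passed the filter through *35S::AtTOR* alone and so had to be lower in *GC::AtTOR*. Over the other 9 genes the median was -0.60, with 4 lower and 1 higher without overlap. The defence marker genes PR2 and PR5 had 0.53 and 0.71, with overlap.

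Glucosinolate synthesis had negative log2 fold changes in 19 of 19 tested genes, with a median of -1.07, 8 lower without overlap and 1 called. The called gene, which passed the filter through *35S::AtTOR* alone and so had to differ, was MAM3 (locus AT5G23020, IMS2), an enzyme that lengthens the methionine side chain, at 2.35, 0 and 0 in *GC::AtTOR* against 66.9, 26.4 and 35.2 in *35S::AtTOR*, with WT at 10.3, 8.01 and 2.95 (limma adjusted p = 0.0394). CYP79F1, of the aliphatic branch, was at 2464, 1081 and 1351 against 5088, 3591 and 3454 without overlap. CYP83B1, of the indole branch, was at 1259, 188 and 154 against 1876, 2217 and 1238, so that *GC::AtTOR* replicate 1 overlapped *35S::AtTOR*. With single samples left out the list median ran from -1.51 to -0.73.

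**Figure D4:**
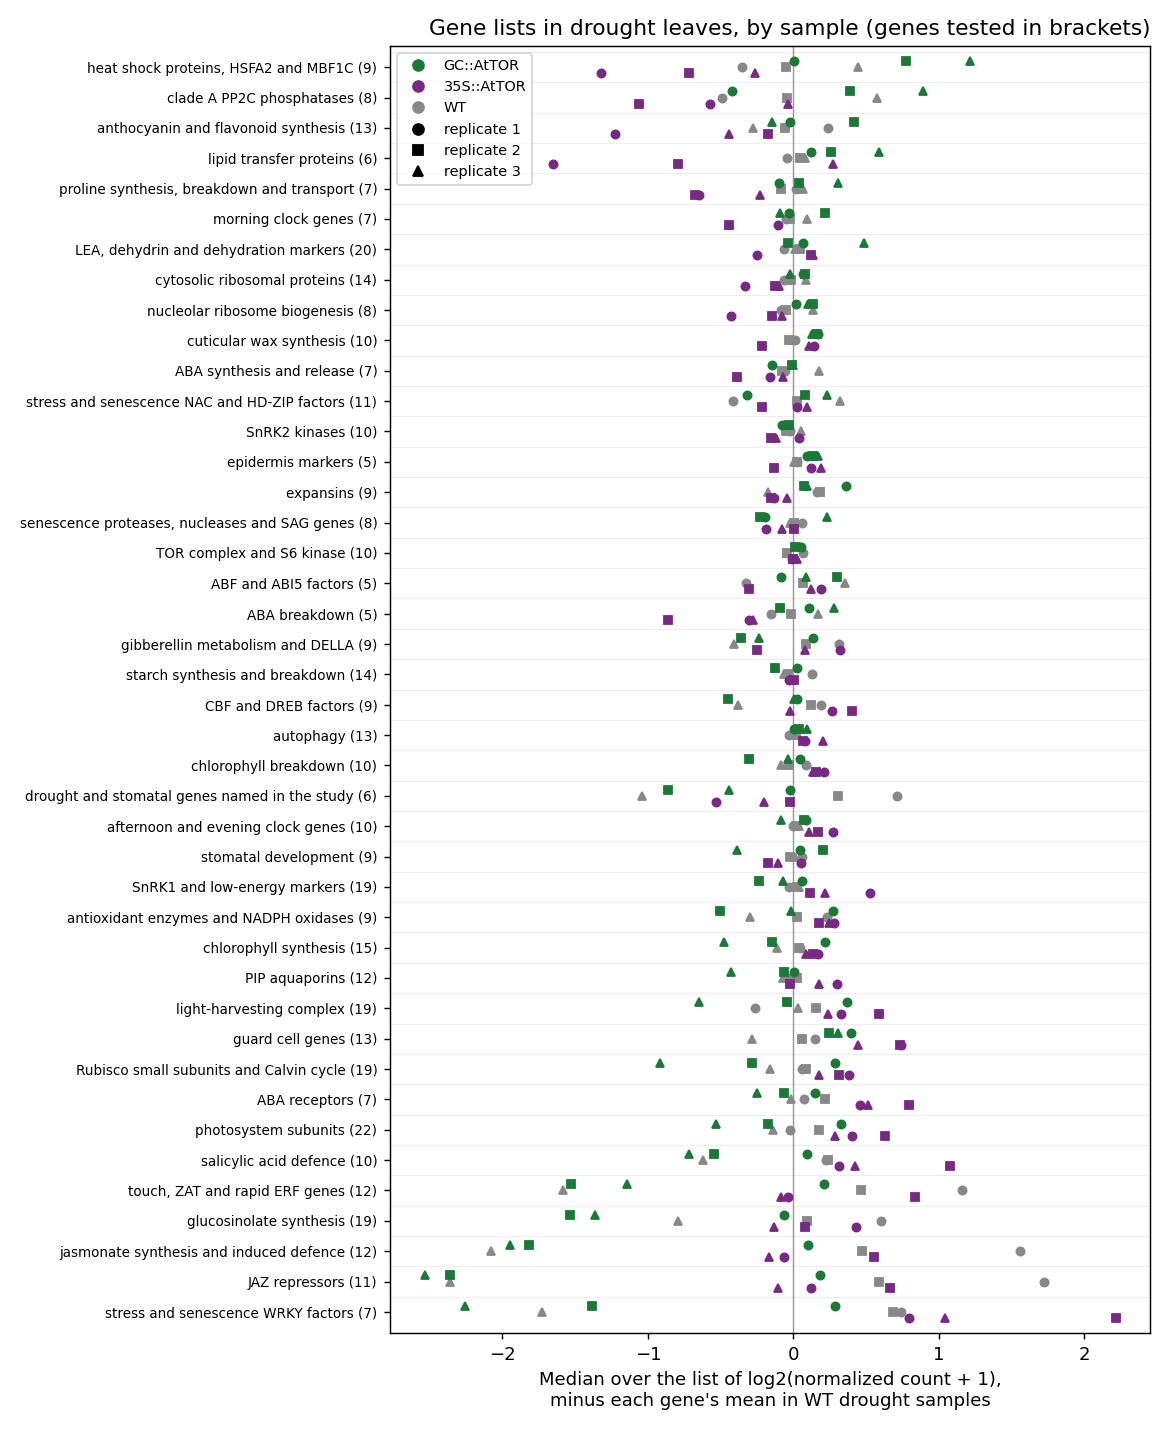
Median over each list of the log2 difference from each gene's WT drought mean, 1 point a drought sample, for lists with 5 or more tested genes, ordered by the median difference between the constructs. Heat shock genes are at the top (GC::AtTOR above 35S::AtTOR, median 1.59) and WRKY factors at the bottom (-2.73), and in the jasmonate lists GC::AtTOR replicates 2 and 3 and WT replicate 3 are low together.

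Genes that report energy state lay lower in *GC::AtTOR*. Of 19 genes of SnRK1 and its low-energy markers, 1 (DIN10) was called, 9 were lower and 1 was higher without overlap, and the median was -0.26 (-0.13 without *35S::AtTOR* replicate 1 and -0.14 without *GC::AtTOR* replicate 2). STP1, a hexose transporter, was at 377, 199 and 109 in *GC::AtTOR* against 1621, 1665 and 888 in *35S::AtTOR* (-2.73, SE 0.48, limma adjusted p = 0.0512). AKINBETA1, a SnRK1 subunit, had -1.61 (limma adjusted p = 0.0539). BZIP11, a factor whose translation sucrose represses, was the member higher without overlap, at 234, 628 and 843 against 139.6, 156 and 181. The catalytic subunit KIN10 had 0.14 (SE 0.10).

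Other parts of the TOR pathway had small log2 fold changes. RAPTOR1B and LST8-1, partners of TOR in its complex, had log2 fold changes of -0.10 (SE 0.11) and 0.05 (SE 0.07), and S6K1, a kinase that TOR phosphorylates, had 0.20 (SE 0.12). Cytosolic ribosomal protein genes had positive log2 fold changes in 14 of 14 tested genes and 10 were higher without overlap, with a median of 0.21 that was 0.31 when samples were scaled to equal totals and 0.13 without *35S::AtTOR* replicate 1. RPS6A, whose protein is phosphorylated downstream of TOR, was at 2367, 2347 and 2446 in *GC::AtTOR* against 1688, 1882 and 2148 in *35S::AtTOR* (0.33, SE 0.11, limma adjusted p = 0.130). Nucleolar genes of ribosome biogenesis had a median of 0.21 with 5 of 8 higher without overlap. Among 13 autophagy genes ATG8E had the most negative value, -0.99 (limma adjusted p = 0.0546).

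Aquaporins of the PIP family, which carry water across the plasma membrane, had 1 of 12 higher and 4 lower without overlap, with a median of -0.38 (-0.18 without *GC::AtTOR* replicate 3). Among them 2 passed the filter through *35S::AtTOR* alone and had to be lower. Over the other 10 the median was -0.21, with 1 higher and 3 lower without overlap. PIP2;2 was at 106, 40.05 and 35.1 in *GC::AtTOR* against 143, 144 and 153 in *35S::AtTOR*, and PIP2;5 was at 324, 483 and 565 against 181, 187 and 271. Wax synthesis had 4 of 10 higher without overlap, among them CER1, an enzyme of alkane formation, with a log2 fold change of 0.60 (limma adjusted p = 0.0997). Touch, ZAT and rapid ERF genes had a median of -0.96 (-0.60 without *GC::AtTOR* replicate 2), with 2 of 12 lower without overlap and ERF6 lowest at -2.30. The lists not described here (clock, starch, chlorophyll, antioxidant, CBF, NAC, senescence, gibberellin, expansin, galactinol and early light-induced genes, and 6 genes named in the study) held no called gene and had medians from -0.27 to 0.32.

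Markers of xylem, phloem, epidermis, trichomes, dividing cells and flowering gave no called gene. Summed normalized counts ran from 209 to 302 in *GC::AtTOR* and from 163 to 284 in *35S::AtTOR* for 4 xylem markers, from 5116 to 6404 and from 5944 to 6347 for 4 phloem markers, and from 17630 to 19220 and from 11540 to 16660 for 5 epidermis markers. The epidermis sums did not overlap, with LTP1 (12932, 14386 and 13894 against 7000.0, 9019 and 11734) and FDH, an enzyme of epidermal lipid synthesis, the members higher without overlap. LTP1 made up most of these sums. Another 1 of the 5 was lower without overlap. Their median log2 fold change was 0.04, and its sign changed without *35S::AtTOR* replicate 2. Sums ran from 11.7 to 22.1 and from 20.1 to 35.2 for the 1 tested trichome marker, from 143 to 176 and from 183 to 187 for 3 dividing cell markers, and from 917 to 1058 and from 1118 to 1297 for 2 flowering markers. The dividing cell and flowering sums did not overlap either, with *GC::AtTOR* the lower, but their members did not all go that way. Of the 3 dividing cell markers 1 had a positive log2 fold change and 1 was lower without overlap. Of the 2 flowering markers 1 was higher and 1 lower without overlap. The part of tissue composition in the other differences was not tested.

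Whether the constructs differed in another way under drought than in well-watered leaves was tested as an interaction over all 27 samples. Its spread was thus shared with well-watered samples, which spread less than drought samples, and may be too small for the latter. With that spread the drought comparison itself called 261 and 810 genes, so interaction counts cannot be set beside the 61. The difference between the constructs changed for 1213 genes (7%), with 361 shifted towards *GC::AtTOR* under drought (2.08%) and 852 shifted towards *35S::AtTOR* (4.92%), so that 70.2% of them were in the second direction. Scaled to equal sample totals the split was 661 to 708, or 51.7%, with the median interaction of all genes at 0.20 in place of 0.01. The 12 samples of the 4 groups alone gave 221 and 429. Without *GC::AtTOR* drought replicate 1 the counts were 599 and 1488, and without *35S::AtTOR* drought replicate 2 they were 167 and 408. Without *GC::AtTOR* drought replicate 3 they were 203 and 444.

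For 1073 of the 1213 genes the difference between the constructs had opposite signs in the 2 treatments, and for 305 of these the samples did not overlap in either treatment. The interaction is the drought difference minus the well-watered one, so choosing genes by it favours opposite signs. The same shares over all genes are not given here, so these counts do not show how common reversal was. Of the 361 genes, 270 rose under drought in WT and 1 fell, and of the 852 genes 612 fell in WT and 27 rose. Here 8% and 10.5% of all genes tested rose and fell in WT. Genes that passed the filter through *GC::AtTOR* alone (296 of all tested) or *35S::AtTOR* alone (385) had to differ under drought and were kept in these counts.

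The genes shifted most towards *GC::AtTOR* under drought were CWINV5, LEA7, AT3G53980, GASA3 and LTP3. LTP3, a lipid transfer protein gene, was at 219, 521 and 468 in *GC::AtTOR* against 4224, 3123 and 2544 in *35S::AtTOR* when watered, and at 17566, 18968 and 31193 against 5310.0, 7056 and 15571 under drought. The order of the constructs was thus reversed without overlap in either treatment, with an interaction of 4.48 on the log2 scale (SE 0.60, limma adjusted p = 0.000208). AT3G53980, of the lipid-transfer and 2S albumin superfamily, was reversed in the same way, from 14.5, 16.8 and 7.67 against 116, 68.5 and 50.6 to 1473, 2979.9 and 2674 against 284, 480.3 and 793 (interaction 4.74, SE 0.91, limma adjusted p = 0.0028).

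CWINV5, a cell wall invertase, was near 0 in well-watered leaves, and under drought stood at 73.9, 467 and 991 in *GC::AtTOR* against 5.74, 5.86 and 48.3 in *35S::AtTOR*, with an interaction of 6.08 (SE 1.06, limma adjusted p = 0.0015). LEA7 had 5.86 (SE 1.13) and GASA3, a gibberellin-regulated peptide gene, had 4.64 (SE 0.99). The level of CWINV5 and GASA3 in well-watered *GC::AtTOR* leaves was 0 in all 3 samples, so that the size of their interaction depends on the value added before the logarithm. The call of GASA3 was lost in 3 of 25 alternatives and that of CWINV5 in 1.

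Genes shifted most towards *35S::AtTOR* included LURP1, RAV1 and AT5G62360, which were high in well-watered leaves of both constructs. LURP1, a gene late in its rise after infection by an oomycete, was at 20273, 20027 and 11682 in *GC::AtTOR* against 17927, 12858 and 18050.0 in *35S::AtTOR* when watered. Under drought it was at 604, 25.3 and 2.92 against 5103, 8454 and 3729. The constructs overlapped when watered and were far apart under drought, with an interaction of -7.16 (SE 1.71, limma adjusted p = 0.011), whose call was lost in 2 of 25 alternatives.

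RAV1, a transcription factor that slows growth, was at 3510.4, 3630.5 and 2789.6 in *GC::AtTOR* against 2945, 2592 and 1657 in *35S::AtTOR* when watered, and at 69.2, 5.72 and 0 against 439.7, 811 and 295 under drought (interaction -6.42, SE 1.25, limma adjusted p = 0.0031). AT5G62360, of the invertase and pectin methylesterase inhibitor superfamily, had -6.45 (SE 1.19), and AT1G14250, of the GDA1/CD39 nucleoside phosphatase family, had -6.74 (SE 1.28). VSP1, a vegetative storage protein induced by jasmonate, had -6.46 (SE 1.98, limma adjusted p = 0.0359), and lost its call in 10 of 25 alternatives.

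The turn between treatments was also seen in the lists of photosystem, light-harvesting and PP2C genes. 12 of 22 photosystem genes and 11 of 19 light-harvesting genes had a call of the interaction towards *35S::AtTOR*, against 4.92% of all genes. Their median log2 fold change between the constructs was 0.49 and 0.83 in well-watered leaves, against -0.58 and -0.43 under drought. 5 of 8 PP2C genes (HAI1, HAI2, ABI2, HAB1 and PP2CA) had a call towards *GC::AtTOR*, against 2.08% of all genes, and their list median was -0.39 in well-watered leaves and 1.18 under drought. Touch and rapid ERF genes had 7 of 12 called towards *35S::AtTOR*. Other lists of photosynthesis and ABA signalling differed. The Rubisco and Calvin cycle list had 1 of 19 called towards *35S::AtTOR*, with medians of 0.14 in well-watered leaves and -0.55 under drought. ABA receptors had 3 of 7 called towards *35S::AtTOR*, SnRK2 kinases 0 of 10 in either direction, and ABF and ABI5 factors 1 of 5 towards *GC::AtTOR*. The interaction shares the drought samples with the drought comparison, so the 2 are not independent.

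Of the 61 called genes, 41 had a call of the interaction in the same direction, that is, the difference between the constructs was shifted under drought towards the construct in which the gene was then higher. 13 of the 61 differed in the same direction without overlap in well-watered leaves and 6 in the opposite one, where 29.7% of all genes did not overlap. In re-watered leaves 14 did so in the same direction and 8 in the opposite one, where 33.5% of all genes did not overlap. The re-watered comparison holds 1 shallow sample, *35S::AtTOR* replicate 1, with 2739872 reads. 5 genes (TOR, AT3G58480, QQS, CYCD1;1 and AT4G00780) differed in 1 direction without overlap in all 3 treatments. The 6 reversed in well-watered leaves were FLS1, GORK, AAE18, AT5G37540, AT2G25200 and AT1G66940 (kinase-like protein). AT1G66940 passed the filter through *35S::AtTOR* alone, so it had to be lower in *GC::AtTOR* under drought. GORK for example was at 166, 159 and 152 in *GC::AtTOR* against 290.0, 276 and 248 in *35S::AtTOR* when watered, the reverse of its order under drought. FLS1 was at 97.4, 131 and 161 against 257, 261 and 271.

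**Figure D5:**
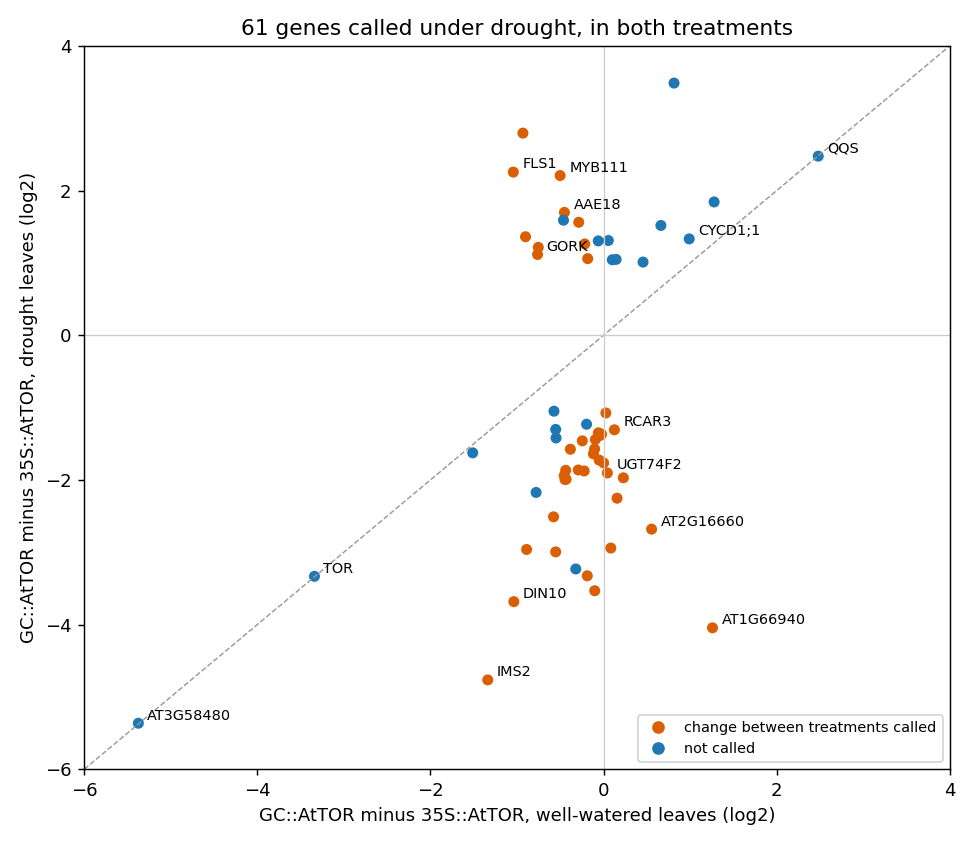
Log2 difference between the constructs (GC::AtTOR minus 35S::AtTOR) in well-watered leaves (horizontal axis) and under drought (vertical axis) for the 61 called genes, 1 point a gene, with the 41 that had an interaction call in orange, the others in blue and some genes named. TOR, AT3G58480 and QQS lie near the dashed line of equal differences, while FLS1 and GORK are above 0 under drought and below 0 in well-watered leaves.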

How the data were processed

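RNA from leaves of the 3 genotypes was made into TruSeq libraries and read on the Illumina NovaSeq platform. Reads were trimmed (Trimmomatic), aligned to TAIR10 (STAR), quantified (Salmon) and summed to genes. CASAVA is named too, and versions are not given in the sources used here. In the deposited table the signal of a gene is its count over the size factor that DESeq2 gave the sample, with no scaling by gene length. All samples carry 1 batch label.

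Groups came from the sample titles. The study calls the replicates biological, without saying which plants made up a sample. Genes averaging 10 or more in either construct under drought were tested with limma 3.58.1 in R 4.3.3 (trended eBayes) on the log2 of the normalized count plus 1, over the 9 drought samples in 1 model, with WT adding to the spread. A fold change on this scale understates that of low genes. A call needed a Benjamini-Hochberg adjusted p below 0.05 together with an absolute log2 fold change over 1. The interaction, the well-watered and re-watered contrasts and the WT drought response used all 27 samples. The study used DESeq2.

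Whole reads were recovered by dividing by the smallest step of a sample (tolerance 0.1 reads, 100% of values in the drought samples) and tested with edgeR 4.0.16 and DESeq2 1.42.0 as alternatives. The step of *35S::AtTOR* well-watered replicate 1 was not accepted, and that sample was left out there. Other alternatives were the value added, the filter, the thresholds, the scaling, blocks, the samples in the fit and each sample left out. The tests were checked on simulated data.

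The samples, the gene lists and the rules were chosen with earlier results of these data known. Named genes are TOR, list members, up to 20 called genes a direction with the largest log2 fold change, an average of 100 or more in the higher construct and no overlap, and the first 5 a direction of the interaction. AT4G00780, AT1G66940, and the neighbours of AT3G58480 were named after their values were seen. The 49 lists held 566 entries, of which 13 were dropped and 480 were tested. An entry was dropped where its name did not match the reference names of its locus, or the locus had no counts. Of 18 cytosolic ribosomal protein entries 14 were kept, and of 12 nucleolar entries 8. Names came from RefSeq (TAIR10.1), which matched 32548 of 34218 IDs. No sequences or coordinates were used.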

Additional observations from a re-analysis of the deposited data

Results flagged for a closer look

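Genes whose difference between the constructs itself differed between drought and well-watered leaves were singled out, by the interaction in limma over 27 samples (values in log2, positive where the difference moved towards *GC::AtTOR* under drought). Among the genes with the largest interaction the values were 6.08 for CWINV5, 5.86 for LEA7, 4.74 for AT3G53980, 4.64 for GASA3 and 4.48 for LTP3, and -7.16 for LURP1, -6.74 for AT1G14250, -6.46 for VSP1, -6.45 for AT5G62360 and -6.42 for RAV1. The levels in each sample are given in the report.

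Of the 36 leading genes of the drought comparison, 25 had such an interaction, 8 of those higher in *GC::AtTOR* under drought and 17 of those lower. The flavonol genes FLS1 and MYB111 had 3.30 and 2.71. GORK had 1.88, AAE18 2.15, AT5G37540 2.26, ALDH2B7 1.48, AT2G30540 1.97 and SGB1 1.24.

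On the other side the sugar starvation gene DIN10 had -2.65, the transcription factor AT5G07580 -2.44 and the sulfate transporters SULTR1;2 and AST56 -2.41 and -1.47. AT1G72416 had -2.07, AT2G16660 -3.24, DOT1 -1.93, AT2G45180 -1.56 and AT2G25200 -2.20. The enzymes RGXT2, UGT74F2, PMAT2, GSTU27 and TBL10 had -1.49, -1.95, -1.65, -1.43 and -1.68. RLP34 had -1.57, AT3G08870 -1.19 and AT1G67860 -1.22.

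TOR, AT3G58480 and QQS were among the 11 leading genes without an interaction call. The leading genes were chosen on the drought samples that also enter the interaction, so these values are not independent of that choice.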

How the results depend on the processing

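Genes higher and lower in *GC::AtTOR* under drought (21 and 40) numbered 30 and 83 with 5 added before the logarithm, 9 and 12 with a mean of at least 50, 0 and 1 at an adjusted p under 0.01, 38 and 52 with equal sample totals (median of all genes 0.098), 163 and 300 with the library number as a block, 1 and 2 with the 6 samples alone, 261 and 810 with 27 samples, 7 and 18 with a mean of at least 10 in any of the 9 groups, and 289 and 534 with DESeq2. Group weights, chosen after seeing the data, gave 0 and 2. With 1 sample left out they ran from 0 to 425 and from 1 to 913. Without *GC::AtTOR* replicate 1 all 61 genes were called, and without *35S::AtTOR* replicate 3 only 23 of them. DESeq2 called all 61 and edgeR 59. Where counts of 0 higher genes arose, 2029 genes had an unadjusted p under 0.05 on that side in the limma fit of the 9 samples.

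Same-numbered samples of the constructs had correlations of 0.04, -0.30 and 0.51 between their deviations, so the replicate numbers did not pair them. The 2 pairs that share a library number had 0.456 and 0.509, too few for pairing by that number. A replicate block gave 273 and 563 and a library number block 163 and 300, against 21 and 40 without a block. With the replicate block none of the 61 calls was lost. For the interaction the replicate block gave 377 and 935.

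For the interaction (361 and 852) the counts were 137 and 298 at an adjusted p under 0.01, 976 and 1315 with no floor on the fold change and 661 and 708 with equal totals. The 12 samples alone, chosen after seeing the data, gave 221 and 429. With 1 sample left out they ran from 167 to 599 and from 408 to 1488. Medians over genes that rose and fell in WT ran from 0.32 to 0.46 and from -0.88 to -0.53, alternatives chosen after seeing the data. None of the 36 leading genes and 10 interaction genes changed direction. The leading genes were chosen for samples without overlap, so leaving out a sample could not reverse them. Other list members were run only through the medians of their lists. Of 900 values of leading genes 382 lost the call, and of 250 of the interaction 16 did. The causes were not tested. Depth limited genes near the minimum of 10.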
